A study of Mus musculus with 10 samples.

Results

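Krt7, Krt8, Krt18 and Krt19 are the keratins of simple epithelia, and their RNA was followed over all 5 groups of a study of mouse embryonic stem cells (ESCs) and the neural cells made from them. They were taken by name, 4 of the 24520 genes in the table, and all 4 were among the 11956 genes that were tested. Cells of the V6.5 ESC line were turned into cells labelled NPCs (neural progenitor cells) through 4 days of embryoid body culture and plating in ITSF medium. At day 5 they received a siRNA against Cbx3, a siRNA against Med26 or a control siRNA against luciferase, and RNA was taken at day 8, 3 days after transfection. The other cells, labelled ESCs, received a siRNA against Cbx3 or the control siRNA; in their growth protocol undifferentiated V6.5 cells were kept on irradiated mouse embryonic fibroblasts (MEFs) with leukemia inhibiting factor. The groups are thus NPC Cbx3 siRNA, NPC Med26 siRNA, NPC control, ESC Cbx3 siRNA and ESC control, each with 2 libraries that the labels call biological replicates. All come from a single ESC line, and the siRNA sequences were not used here. HP1 gamma, the product of Cbx3, binds methylated histone H3 and also sits on active genes. Med26 is part of Mediator, the bridge between transcription factors and the polymerase of messenger RNA. The series is about the part of Cbx3 in lineage choice during neural differentiation.

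Keratins are intermediate filament proteins that assemble as pairs of an acidic type I and a basic or neutral type II chain. Krt18 and Krt19 are type I, Krt8 and Krt7 are type II, and the Krt8 and Krt18 pair is the first keratin network of the mouse embryo, in the trophectoderm and later in simple epithelia. The filaments attach to desmosomes through linkers such as desmoplakin. Neural progenitors of the embryo are known for other intermediate filaments, nestin and vimentin.

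The start regions of the genes are shown because Krt8 and Krt18, the pair with the highest RNA levels, are transcribed from opposite strands of chromosome 15 and moved together in the results below. RefSeq windows of 300 bases, 250 before and 50 after the annotated start in build GRCm38.p6, were matched for 3 of the 4 genes, Krt7, Krt8 and Krt18, and are printed 5′ to 3′. Capitals mark matches, on either strand, to 5 motifs: the TATA box (TATAAA), AP-1 (TGANTCA), Sp1 (GGGCGG), ETS (CCGGAAG) and TEAD (GGAATG).
Krt8 promoter, chr15:102004293-102004592, minus strand: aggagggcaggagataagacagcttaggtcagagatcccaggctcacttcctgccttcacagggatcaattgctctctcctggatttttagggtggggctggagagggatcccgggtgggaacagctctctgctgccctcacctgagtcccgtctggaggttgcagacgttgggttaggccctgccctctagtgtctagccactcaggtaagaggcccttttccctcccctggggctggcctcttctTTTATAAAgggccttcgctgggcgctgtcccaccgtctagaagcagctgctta
Krt18 promoter, chr15:102027966-102028265, plus strand: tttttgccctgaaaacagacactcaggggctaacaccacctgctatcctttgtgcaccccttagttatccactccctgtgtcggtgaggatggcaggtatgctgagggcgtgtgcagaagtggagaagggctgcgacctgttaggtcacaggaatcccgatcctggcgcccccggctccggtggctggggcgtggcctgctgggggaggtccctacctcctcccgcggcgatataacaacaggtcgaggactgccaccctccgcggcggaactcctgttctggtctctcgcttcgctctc
Krt7 promoter, chr15:101412153-101412452, plus strand: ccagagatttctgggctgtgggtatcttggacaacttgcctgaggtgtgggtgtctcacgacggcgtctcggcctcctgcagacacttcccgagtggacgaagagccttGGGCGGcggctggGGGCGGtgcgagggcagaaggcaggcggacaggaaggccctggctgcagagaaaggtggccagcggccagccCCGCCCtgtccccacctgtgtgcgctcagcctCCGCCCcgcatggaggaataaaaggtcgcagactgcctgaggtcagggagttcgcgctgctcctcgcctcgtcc
In the Krt8 window TATAAA matched on each strand, at 3 and 1 bases before the annotated start, in overlapping letters. The Krt7 window held 4 matches to GGGCGG, at 141, 128, 56 and 24 bases before the start. The Krt18 window held none of the 5 motifs. Of 32851 promoter windows of the same length, 13.6% held the TATA letters, 7.81% AP-1, 35.7% Sp1, 8.86% ETS and 14.7% TEAD. These are matches of letters, and the data do not include binding at these windows.

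RNA was measured as RPKM, a read density corrected for transcript length and sequencing depth, which allows levels to be compared between genes. The NPC replicates correlated at r = 0.995 to 0.996 over the tested genes, and the ESC replicates at 0.949 in both ESC groups. In NPC libraries 0.0502% to 0.151% of tested genes lay more than 2-fold apart between replicates, against 6.29% to 6.87% in ESC groups. The ESC libraries numbered 2 stood apart from those numbered 1. Markers of ESCs summed to 674 and 372 RPKM in ESC Cbx3 siRNA replicates 1 and 2 and to 748 and 411 RPKM in ESC control replicates 1 and 2. NPC markers summed to 10.7 and 19.2 RPKM in ESC Cbx3 siRNA and to 13.1 and 23.3 RPKM in ESC control. The gap in the NPC sums lay mostly in Nes, with 4.71 and 13.0 RPKM in ESC Cbx3 siRNA and 6.35 and 15.4 RPKM in ESC control. Sox1 was 4.95 and 4.81 RPKM in ESC Cbx3 siRNA and 5.52 and 5.50 RPKM in ESC control. The part of ESC and NPC markers in the keratin values of these libraries was not tested. ESC results for the 4 keratins are therefore also given without single libraries. Steps in the low values give a rough estimate of 23.2 to 63.8 M reads per library (M for mega). The ESC libraries numbered 2 had the lowest estimates, 23.2 M in ESC Cbx3 siRNA and 23.95 M in ESC control. Those numbered 1 had 33.55 and 51.2 M. The part of depth in the gap between these libraries was not tested. Cbx3 was 0.425 and 0.248 RPKM in NPC Cbx3 siRNA and 9.37 and 9.65 RPKM in NPC control, a log2 change of -2.98 (limma, adjusted p = 0.000172). ESC Cbx3 siRNA libraries had 1.01 and 1.96 RPKM of Cbx3, against 13.99 and 56.4 RPKM in the ESC control libraries, a change of -3.59 that did not pass (adjusted p = 0.291). Med26 was 3.04 and 3.07 RPKM in NPC Med26 siRNA and 7.56 and 6.78 RPKM in NPC control (-1.01, adjusted p = 0.00398). The NPC label was only partly borne out by its markers. Nes was 30.0 to 40.4 RPKM and Sox1 4.71 to 11.5 RPKM in the 6 NPC libraries. Fabp7 and Hes5 were at most 0.342 RPKM there, and Pou5f1, a pluripotency factor, stood at 380 to 497 RPKM. In NPC control Pou5f1 and Nanog lay within the range of the ESC control libraries, while other ESC markers were lower. Esrrb was 1.18 and 0.913 RPKM in NPC control against 53.4 and 13.7 RPKM in ESC control. Klf4 was 0.458 and 0.352 RPKM against 20.7 and 6.45 RPKM in these groups. Zfp42 was 14.3 and 16.0 RPKM against 79.6 and 58.6 RPKM, and Tfcp2l1 1.55 and 1.43 RPKM against 13.9 and 6.47 RPKM.

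Krt18, the type I partner of Krt8, had the highest level of the 4 in every library. It was 303 and 326 RPKM in NPC Cbx3 siRNA, 209.7 and 221 RPKM in NPC Med26 siRNA, and 132 and 141 RPKM in NPC control. It was 12.4 and 127.7 RPKM in ESC Cbx3 siRNA and 10.05 and 54.3 RPKM in ESC control. Within NPCs the 3 groups did not overlap, while each ESC group had a low library, numbered 1, and a high library, numbered 2. By level, Krt18 ranked 105 and 101 of the 11956 tested genes in NPC Cbx3 siRNA, 159 and 155 in NPC Med26 siRNA, and 322 and 308 in NPC control. It ranked 4243 and 402 in ESC Cbx3 siRNA and 5013 and 1047 in ESC control.

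Krt8, the type II chain, came second in every library. It was 168 and 183 RPKM in NPC Cbx3 siRNA, 114 and 121 RPKM in NPC Med26 siRNA, and 59.4 and 62.6 RPKM in NPC control. It was 6.30 and 95.7 RPKM in ESC Cbx3 siRNA and 4.59 and 40.7 RPKM in ESC control. NPC replicates were at most 1.08-fold apart for Krt8, and the ESC replicates were 15.2-fold apart after Cbx3 siRNA and 8.87-fold apart in control. A gap at least as large was found for 0.134% of tested genes between the ESC Cbx3 siRNA replicates and for 0.309% between the ESC control replicates. Krt8 has a named pseudogene copy, Krt8-ps, with which the authors' counting could share reads.

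Krt19, a type I keratin that is found beside Krt8 and Krt18 in many simple and ductal epithelia, stood below both. It was 35.2 and 40.7 RPKM in NPC Cbx3 siRNA, 40.5 and 37.4 RPKM in NPC Med26 siRNA, and 16.3 and 17.8 RPKM in NPC control. It was 2.34 and 14.9 RPKM in ESC Cbx3 siRNA and 2.91 and 8.66 RPKM in ESC control. The siRNA groups of NPCs overlapped each other for Krt19 and lay above their control. Krt7, a type II keratin of glandular and ductal epithelia, had the lowest level of the 4 throughout. It was 9.08 and 9.83 RPKM in NPC Cbx3 siRNA, 4.95 and 5.18 RPKM in NPC Med26 siRNA, and 3.05 and 2.84 RPKM in NPC control. It was 0.939 and 5.97 RPKM in ESC Cbx3 siRNA and 0.615 and 2.99 RPKM in ESC control, so that an ESC control library reached the range of NPC control for Krt7.

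**Figure D1:**
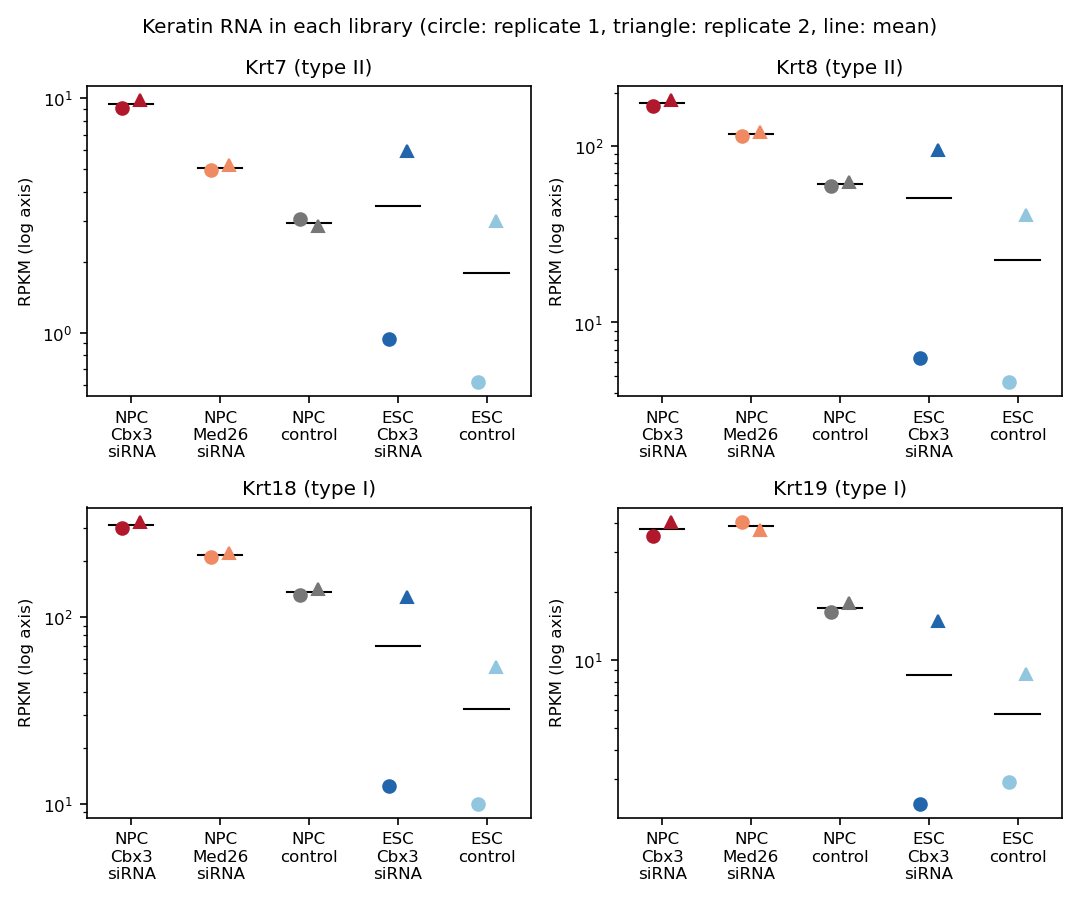
RPKM on a log axis for each of the 4 keratins, with the 5 groups side by side; circles and triangles are replicates 1 and 2 and lines are group means (n = 2). In NPCs replicates lie close together and the siRNA groups lie above control, while in each ESC group the triangle lies far above the circle, for Krt8 at 95.7 against 6.30 RPKM after Cbx3 siRNA.

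Cbx3 siRNA in NPCs raised all 4 keratins. Krt8 averaged 175 ± 9.99 RPKM after Cbx3 siRNA and 61.0 ± 2.28 RPKM in control, Krt18 averaged 314 ± 16.3 RPKM after Cbx3 siRNA and 136 ± 6.44 RPKM in control (SD, n = 2 each). Krt19 averaged 37.98 ± 3.91 RPKM after Cbx3 siRNA and 17.0 ± 1.02 RPKM in control, and Krt7 averaged 9.46 ± 0.532 RPKM after Cbx3 siRNA and 2.94 ± 0.146 RPKM in control (SD, n = 2 each). The ratios of these means were 2.88, 2.30, 2.23 and 3.21 for Krt8, Krt18, Krt19 and Krt7. On the log2(RPKM + 1) scale, which understates changes of low genes such as Krt7, the change was 1.51 for Krt8 (standard error 0.06, 95% interval 1.36 to 1.66), 1.20 for Krt18 (1.04 to 1.36), 1.11 for Krt19 (0.90 to 1.32) and 1.41 for Krt7 (1.22 to 1.60). Adjusted p-values from limma, over all tested genes in the fit of the 6 NPC libraries, were 0.000285, 0.000731, 0.00176 and 0.000808. The background is 7.8% of tested genes called higher in this comparison, 5.33% called lower and 13.1% called in either direction. Krt8 had the 6th highest change of the 11956 tested genes, Krt7 the 11th, Krt18 the 23rd and Krt19 the 33rd, and the median of the 4 was 1.30 against 0.007 over all tested genes. All 4 kept their call without any 1 of the 4 libraries compared, with adjusted p from 0.00320 to 0.0233. In a fit of all 10 libraries, whose spread includes the ESC replicates, none of the 4 passed (adjusted p = 0.438 to 0.790). That fit called 1 of the 11956 tested genes in this comparison. In RNA from whole cultures, more cells with keratin and more keratin RNA per cell cannot be told apart.

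Med26 siRNA in NPCs also raised all 4, in another order. Krt19 averaged 38.95 ± 2.20 RPKM after Med26 siRNA against 17.0 ± 1.02 RPKM in control, and Krt8 averaged 118 ± 4.68 RPKM after Med26 siRNA against 61.0 ± 2.28 RPKM in control (SD, n = 2 each). Krt18 averaged 215 ± 8.18 RPKM after Med26 siRNA against 136 ± 6.44 RPKM in control, and Krt7 averaged 5.06 ± 0.166 RPKM after Med26 siRNA against 2.94 ± 0.146 RPKM in control (SD, n = 2 each). The log2 change was 1.15 for Krt19 (standard error 0.09, adjusted p = 0.00224), 0.94 for Krt8 (0.00180), 0.66 for Krt18 (0.00440) and 0.62 for Krt7 (0.00822). The background is 6.9% of tested genes called higher, 6.46% lower and 13.4% in either direction, and the median of the 4 was 0.80 against -0.001 over all tested genes. Krt19 had the 8th highest change of all tested genes, Krt8 the 29th, Krt18 the 126th and Krt7 the 163rd. Krt7 no longer passed without NPC control replicate 2 (adjusted p = 0.0560), NPC Med26 siRNA replicate 1 (0.0586) or NPC Med26 siRNA replicate 2 (0.0560). In the fit of all 10 libraries none of the 4 passed (adjusted p = 0.612 to 0.929), and 15 of the 11956 tested genes did.

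Set directly against Med26 siRNA, Cbx3 siRNA gave higher levels of Krt7, Krt8 and Krt18 in NPCs, and Krt19 did not pass. This comparison uses the same siRNA libraries as the 2 before it. The log2 change was 0.79 for Krt7 (95% interval 0.59 to 0.98, adjusted p = 0.00310), 0.57 for Krt8 (0.42 to 0.73, adjusted p = 0.00437) and 0.54 for Krt18 (0.38 to 0.70, adjusted p = 0.00506). For Krt19 it was -0.04, with an interval of -0.25 to 0.17 and adjusted p = 0.800, which leaves room for a difference of that size either way. The ratios of mean RPKM were 1.87, 1.49, 1.46 and 0.975 for Krt7, Krt8, Krt18 and Krt19. The background is 10.4% of tested genes called higher after Cbx3 siRNA, 7.87% lower and 18.3% in either direction. In the fit of all 10 libraries none of the 3 passed (adjusted p = 0.657 to 0.934), and 120 of the 11956 tested genes did.

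**Figure D2:**
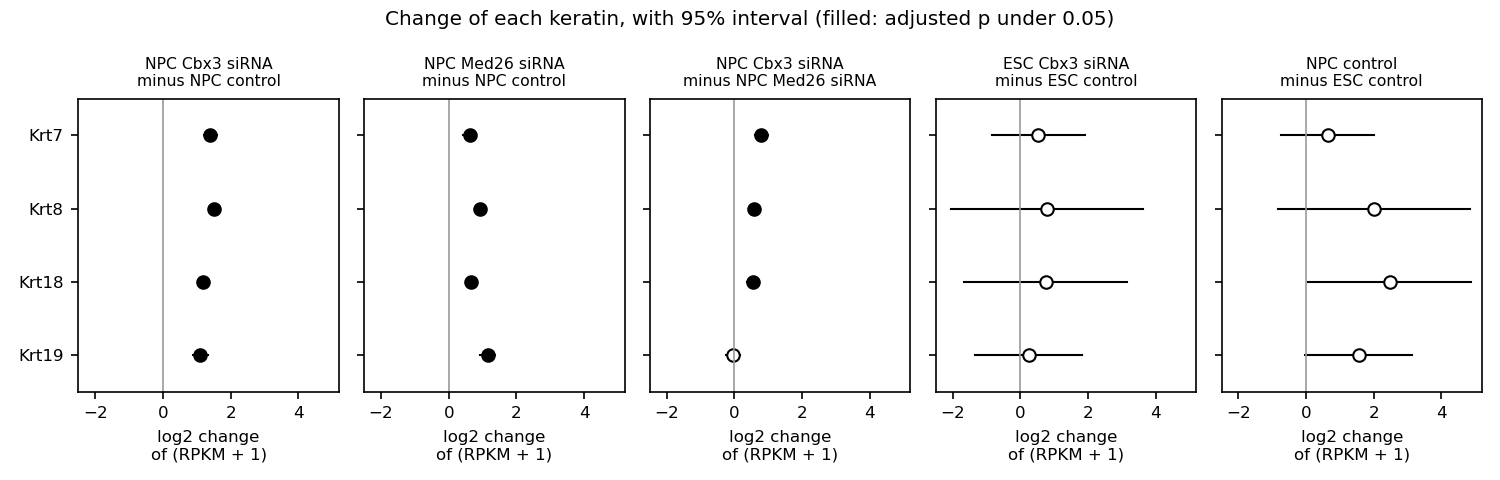
log2 change of (RPKM + 1) with its 95% interval for the 4 keratins, a panel per comparison, filled where the adjusted p is under 0.05. The NPC panels have narrow intervals, with Krt8 at 1.51 after Cbx3 siRNA, while the intervals of the comparisons with ESC libraries span several log2 units.

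Ratios between the keratins set some NPC groups apart, while the ESC groups overlapped. The ratio of Krt18 to Krt8 RPKM was 1.80 and 1.78 in NPC Cbx3 siRNA and 1.83 and 1.83 in NPC Med26 siRNA, against 2.22 and 2.25 in NPC control, and was 1.97 and 1.33 in ESC Cbx3 siRNA and 2.19 and 1.33 in ESC control. Both siRNA groups of NPCs thus lay below their control in this ratio, and the ESC libraries numbered 2 were lowest of all 10. The ratio of Krt19 to Krt18 was 0.193 and 0.169 in NPC Med26 siRNA and 0.116 and 0.125 in NPC Cbx3 siRNA, against 0.124 and 0.126 in NPC control. It set Med26 siRNA apart from the other NPC libraries. In ESC Cbx3 siRNA it was 0.188 and 0.116, and in ESC control 0.290 and 0.159. No test was run on the ratios. The type I sum, Krt18 and Krt19, was 1.90 and 1.90 times the type II sum, Krt8 and Krt7, in NPC Cbx3 siRNA, 2.10 and 2.05 times in NPC Med26 siRNA, and 2.37 and 2.43 times in NPC control.

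**Figure D3:**
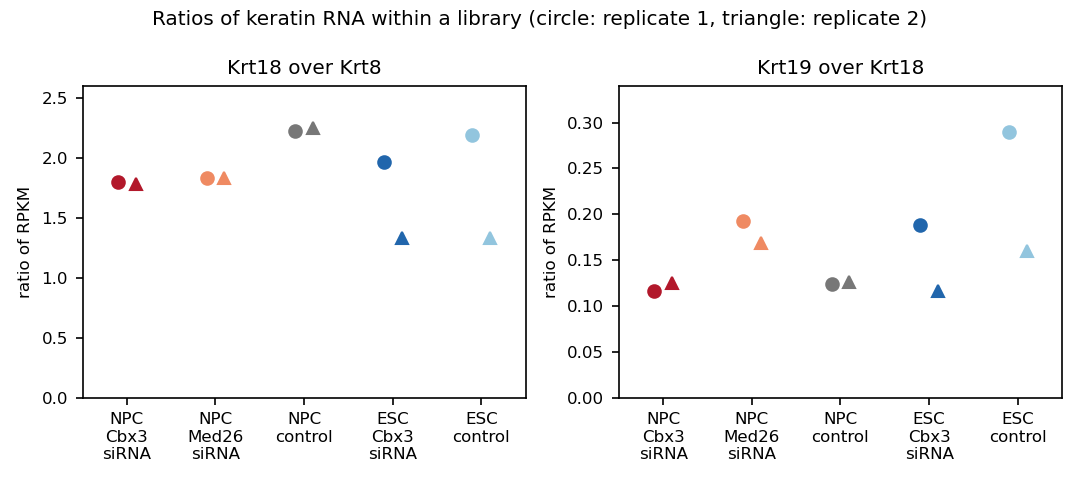
Ratio of RPKM within each library, Krt18 over Krt8 on the left and Krt19 over Krt18 on the right, by group; circles and triangles are replicates 1 and 2. In NPCs the siRNA libraries lie at 1.78 to 1.83 for Krt18 over Krt8 and the control libraries at 2.22 and 2.25, and for Krt19 over Krt18 the Med26 siRNA libraries lie highest of the NPC libraries, at 0.193 and 0.169.

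In ESCs none of the 4 keratins passed after Cbx3 siRNA in the fit that takes the libraries of a group as unpaired replicates. The log2 change was 0.80 for Krt8 (standard error 1.22, 95% interval -2.04 to 3.64), 0.75 for Krt18 (1.03, -1.66 to 3.16), 0.53 for Krt7 (0.59, -0.84 to 1.91) and 0.24 for Krt19 (0.68, -1.33 to 1.82), with adjusted p = 0.9998 for each in the fit of all 10 libraries. In that limma fit 0 of the 11956 genes passed, a background of 0%, and 645 had an unadjusted p under 0.05. Without ESC Cbx3 siRNA replicate 2 the changes were -1.07 for Krt8, -0.88 for Krt18, -0.39 for Krt7 and -0.88 for Krt19, and without ESC control replicate 1 they were -0.65, -0.41, -0.12 and -0.41. The lone library of a group is then assumed to vary like the other groups. The sign in these unpaired fits thus turned with a single library for all 4. There a low library numbered 1 is set against the mean of both control libraries, or the mean of both Cbx3 siRNA libraries against the high control library. Such fits set libraries of unlike number against each other. Within numbers 1 and 2, the ratio of Cbx3 siRNA to control RPKM was 1.37 and 2.35 for Krt8 and 1.23 and 2.35 for Krt18. It was 1.53 and 2.00 for Krt7 and 0.802 and 1.72 for Krt19. The labels do not say that a number marks a shared culture. The difference between the response to Cbx3 siRNA in NPCs and that in ESCs was 0.71 for Krt8, 0.45 for Krt18, 0.87 for Krt7 and 0.87 for Krt19, and none passed (adjusted p = 0.9999 each). In that limma test 0 genes passed, a background of 0%, with 233 at an unadjusted p under 0.05. The rise in NPCs is therefore not shown to differ from the change in ESCs.

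NPC control stood above ESC control in the mean of each keratin, and none of the differences passed. Krt18 averaged 136 ± 6.44 RPKM in NPC control and 32.2 ± 31.3 RPKM in ESC control, and Krt8 averaged 61.0 ± 2.28 RPKM in NPC control and 22.7 ± 25.6 RPKM in ESC control (SD, n = 2 each). Krt19 averaged 17.0 ± 1.02 RPKM in NPC control and 5.78 ± 4.06 RPKM in ESC control, and Krt7 averaged 2.94 ± 0.146 RPKM in NPC control and 1.80 ± 1.68 RPKM in ESC control (SD, n = 2 each). The log2 differences were 2.47 for Krt18 (adjusted p = 0.141), 2.02 for Krt8 (0.290), 1.55 for Krt19 (0.154) and 0.64 for Krt7 (0.483). The unadjusted p for Krt18 was 0.0455 (limma), and 4010 of the 11956 tested genes had an unadjusted p under 0.05. The background is 16% of tested genes called, 10.1% higher and 5.94% lower. Without ESC control replicate 1 the differences were 1.31, 0.57, 0.90 and -0.02 for Krt18, Krt8, Krt19 and Krt7, and without ESC control replicate 2 they were 3.64, 3.47, 2.20 and 1.29, again with none passing.

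The 4 genes made up nearly all keratin RNA of the NPC libraries. The table holds 54 genes with a keratin symbol, of which 7 passed the filter of at least 1 RPKM in at least 2 libraries: the 4 simple epithelial keratins, Krt17, Krt14 and Krt42. The 4 held 98.4% and 98.5% of the summed keratin RPKM in NPC Cbx3 siRNA, 98.5% and 98.6% in NPC Med26 siRNA, and 98.2% and 98.4% in NPC control. They held 54.2% and 95.2% in ESC Cbx3 siRNA and 53.7% and 91.7% in ESC control. The other 50 keratin genes summed to 8.23 and 8.78 RPKM in NPC Cbx3 siRNA, 5.47 and 5.59 RPKM in NPC Med26 siRNA, and 3.78 and 3.75 RPKM in NPC control.

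Krt14, the type I keratin of basal epidermal cells, was 1.23 and 1.20 RPKM in NPC Cbx3 siRNA, 0.390 and 0.294 RPKM in NPC Med26 siRNA, and 0.249 and 0.259 RPKM in NPC control. It reached 1 RPKM only in the NPC Cbx3 siRNA libraries and so passed the filter only through the group where it is high; its levels are a description, with no test. Krt17, a type I keratin of skin appendages and of stressed epithelia, rose after Cbx3 siRNA, with 3.40 and 4.08 RPKM against 1.27 and 1.78 RPKM in NPC control (0.91, adjusted p = 0.00930). After Med26 siRNA it was 2.87 and 3.23 RPKM (0.69, adjusted p = 0.0229), a call lost without any 1 of the 4 libraries compared (adjusted p = 0.0535 to 0.0995); after Cbx3 siRNA it was lost without NPC control replicate 1 (0.0540). Krt42, a type I keratin, did not pass in NPCs after either siRNA (0.24 and 0.17). Its levels were 0.445 and 0.364 RPKM in NPC control, against 8.34 and 3.82 RPKM in ESC control; it passed the filter only through the ESC libraries, so this contrast is given with no test. Krt17 was lower in NPC control than in ESC control, at 1.27 and 1.78 RPKM against 5.82 and 4.13 RPKM (-1.24, adjusted p = 0.0167), and passed only without ESC control replicate 2 when single libraries were left out (0.0182, and 0.0644 to 0.124 for the others).

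**Figure D4:**
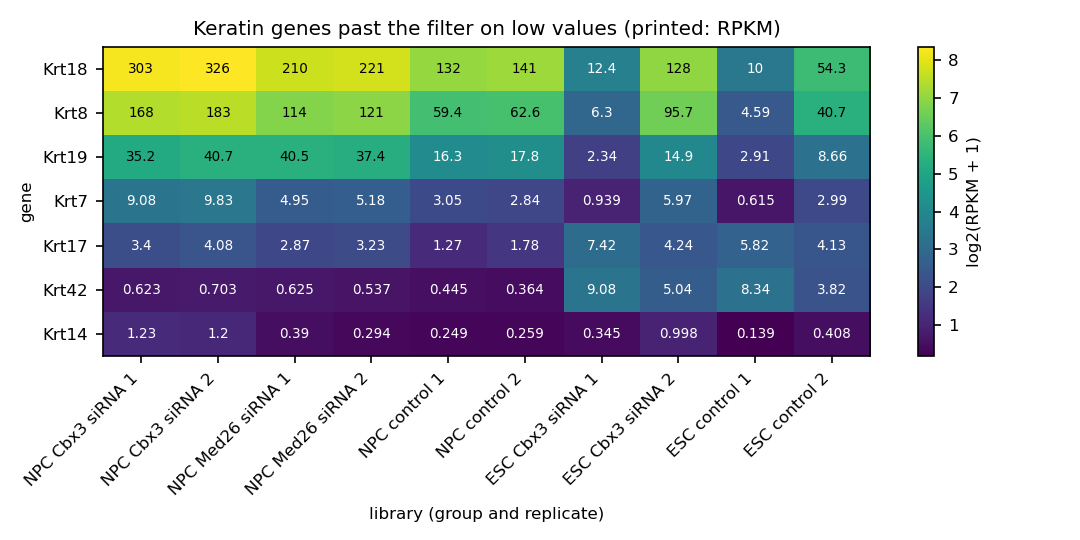
The 7 keratin genes past the filter on low values, with RPKM printed in each cell and log2(RPKM + 1) as colour, by library. Krt18 and Krt8 fill the upper rows, from 303 and 326 RPKM for Krt18 in NPC Cbx3 siRNA to 10.05 RPKM in ESC control replicate 1, while Krt17 and Krt42 have their highest values in ESC libraries.

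Other intermediate filament genes moved in both directions after Cbx3 siRNA in NPCs. The list counts here and below stand beside the background of 7.8% higher and 5.33% lower after Cbx3 siRNA and of 6.9% higher and 6.46% lower after Med26 siRNA. For list counts between the siRNAs the background is 10.4% higher and 7.87% lower after Cbx3 siRNA. Without any 1 of the 4 libraries compared, the genes called over the whole table fell to 391 to 524 from 1570 after Cbx3 siRNA, and to 164 to 320 from 1597 after Med26 siRNA. Of 13 tested of 16 listed, 6 rose and 2 fell, with a median log2 change of 0.28. Lmna, which encodes lamins A and C of the nuclear envelope, rose most, with 26.1 and 28.5 RPKM against 14.9 and 13.9 RPKM in control (0.88, adjusted p = 0.00168). Prph, the neuronal filament peripherin, rose by 0.55, and Nefh, the heavy neurofilament chain, and Synm, which encodes synemin, fell by 0.44 and 0.42. After Med26 siRNA 2 rose and 2 fell, with a median of 0.06: Lmna (0.83, adjusted p = 0.00250) and Nefl, the light neurofilament chain (0.27), rose, and Synm and Nefh fell by 0.42 and 0.40. Without any 1 of the 4 libraries compared, 2 to 3 genes passed as higher after Cbx3 siRNA, 1 after Med26 siRNA and none as lower, and Lmna passed in every such fit.

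Genes of desmosomes and of keratin linkage numbered 17 tested of 20. After Cbx3 siRNA 6 rose and 1 fell, with a median of 0.22. The plakophilin Pkp3 rose by 0.63, with 5.89 and 6.31 RPKM against 3.86 and 3.34 RPKM in control, and Dsp, which encodes desmoplakin, by 0.55, with 9.49 and 8.61 RPKM against 5.92 and 5.78 RPKM. The desmosomal cadherin Dsg2 (0.43) and Perp, a desmosomal membrane protein (0.39), also rose. After Med26 siRNA 4 rose and none fell, with a median of 0.14, led by Dsp (0.56), the desmosomal cadherin Dsc2 (0.52), Jup, which encodes plakoglobin (0.42), and the plakophilin Pkp2 (0.22). These calls rested on all libraries: without any 1 of the 4 compared, 1 to 2 genes passed as higher after Cbx3 siRNA and 0 after Med26 siRNA, and none as lower. Between the siRNAs Pkp3 was higher after Cbx3 siRNA (0.79, adjusted p = 0.00435) and Jup was lower (-0.61, adjusted p = 0.00694), with Dsg2 (0.34) and Perp (0.30) also called higher and the integrin Itga6 (-0.33) lower. Without any 1 of the 4 libraries compared 1 gene passed as higher, Pkp3, and 0 to 2 as lower.

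Junction and surface genes of simple epithelia, 22 listed and all tested, moved unevenly. After Cbx3 siRNA 4 rose and 2 fell, with a median of 0.08. The tight junction claudin Cldn4 was 129 and 138 RPKM against 67.5 and 64.2 RPKM in control (1.01, adjusted p = 0.000864), Cgn, which encodes cingulin, rose by 0.54 and the junctional adhesion molecule F11r by 0.39, and the cadherin Cdh3 fell by 0.49. After Med26 siRNA 9 rose and 1 fell, with a median of 0.21. Cgn (0.66), the membrane protease Prss8 (0.61) and Cldn4 (0.50) were among those that rose. Without any 1 of the 4 libraries compared, 1 to 2 genes passed as higher after Cbx3 siRNA and 1 to 3 after Med26 siRNA, and at most 1 as lower. Cldn4 after Cbx3 siRNA passed in every such fit. Between the siRNAs 2 genes were higher and 7 lower after Cbx3 siRNA, 2 higher and 2 to 4 lower without any 1 of the 4 libraries compared, among them the claudin Cldn3 (0.64), Ezr, which encodes ezrin of microvilli (-0.56), and Cldn4 (0.51).

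Transcription factors of epithelia numbered 20 tested of 23. After Cbx3 siRNA 6 rose and none fell, with a median of 0.14. Elf3, an ETS factor of epithelia, was 7.78 and 6.55 RPKM against 3.43 and 3.30 RPKM in control (0.90, adjusted p = 0.00417), Junb, an AP-1 subunit, was 27.9 and 30.8 RPKM against 16.3 and 16.1 RPKM (0.81, adjusted p = 0.00168), and Klf6 (0.59) and Ets2 (0.53) rose too. After Med26 siRNA 7 rose and none fell, with a median of 0.27, led by Tead1 (0.67), Junb (0.65), the AP-1 subunit Fosl2 (0.59) and Tead4 (0.44). Without any 1 of the 4 libraries compared, 3 to 5 genes passed after Cbx3 siRNA and 1 to 2 after Med26 siRNA. Elf3, Junb and Klf6 after Cbx3 siRNA and Junb after Med26 siRNA passed in every such fit. In the fit of all 10 libraries no gene of these 4 lists passed in either comparison. Of the 11956 tested genes that fit called 1 after Cbx3 siRNA and 15 after Med26 siRNA. After Cbx3 siRNA in ESCs none passed in any of the 4 lists, where 0 of all tested genes passed.

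**Figure D5:**
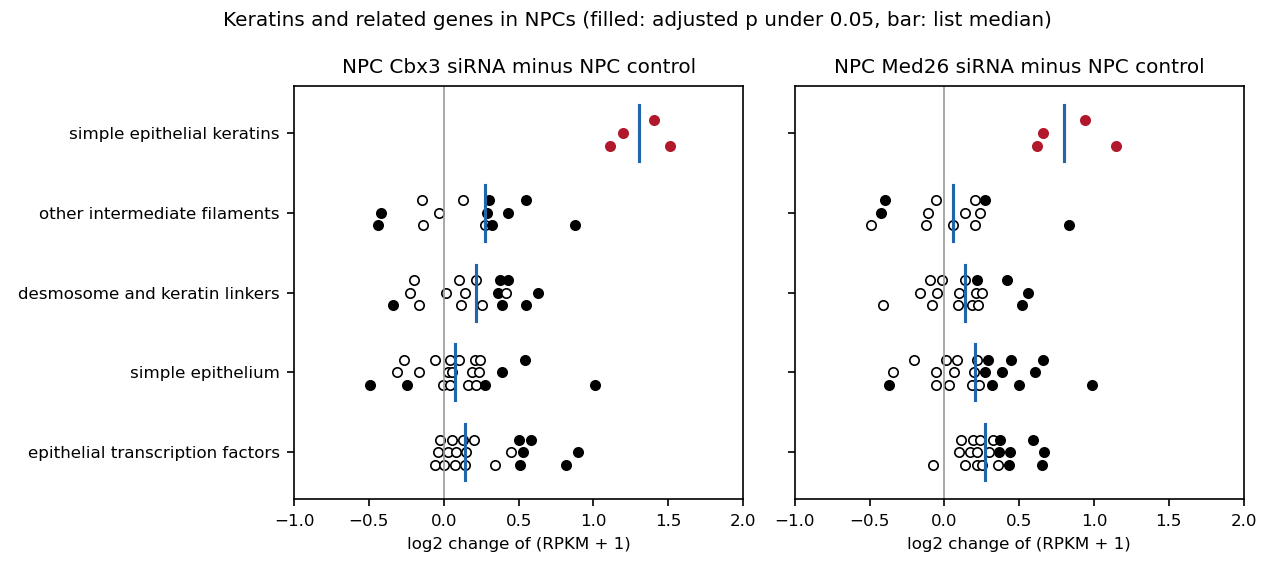
log2 change of (RPKM + 1) in NPCs after Cbx3 siRNA (left) and Med26 siRNA (right) for the 4 keratins and each tested gene of 4 related lists; filled points have an adjusted p under 0.05 and bars are list medians, with points spread vertically for legibility. The keratins have medians of 1.30 and 0.80, and the other lists lie at 0.06 to 0.28.

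Markers of cell types that carry these keratins, or that the cultures could hold, are given with the NPC results. Their part in the rise of the keratins was not tested. Trophectoderm markers, 2 of 7 past the filter, summed to 8.31 and 7.02 RPKM in NPC Cbx3 siRNA, 6.77 and 6.34 RPKM in NPC Med26 siRNA, and 4.73 and 4.77 RPKM in NPC control, and Elf5 was at most 0.0201 RPKM in these libraries. Of that list Cdx2 was 0.775 and 0.816 RPKM in NPC Cbx3 siRNA, 0.459 and 0.483 RPKM in NPC Med26 siRNA, and 0.303 and 0.449 RPKM in NPC control. Eomes rose after Cbx3 siRNA (0.37, adjusted p = 0.0454), a call lost without any 1 of the 4 libraries compared (0.121 to 0.168). Gata2 was 1.65 and 0.684 RPKM in NPC Cbx3 siRNA against 0.367 and 0.387 RPKM in NPC control, and Gata3 was 1.08 and 0.617 RPKM against 0.405 and 0.288 RPKM in the same groups. Cdx2, Eomes, Gata2 and Gata3 were thus higher after Cbx3 siRNA, at low levels. Tfap2c, the other marker of that list past the filter, changed by 0.0752 after Cbx3 siRNA and did not pass (adjusted p = 0.6098). In NPC Med26 siRNA Gata2 was 0.681 and 0.803 RPKM and Gata3 was 0.999 and 0.463 RPKM, also above NPC control. Extraembryonic endoderm markers, 4 of 8, summed to 2.64 to 3.71 RPKM over the 6 NPC libraries, with Afp and Ttr at most 0.0175 RPKM. Epidermis markers, 1 of 6, summed to 1.70 and 1.64 RPKM in NPC Cbx3 siRNA, 1.12 and 0.859 RPKM in NPC Med26 siRNA, and 0.796 and 0.688 RPKM in NPC control, with Krt5 and Trp63 at most 0.0716 RPKM. The epidermis sums contain Krt14. Fibroblast markers, 6 of 8, summed to 9.39 and 8.25 RPKM in NPC Cbx3 siRNA, 6.10 and 5.84 RPKM in NPC Med26 siRNA, and 7.55 and 5.84 RPKM in NPC control, with Lum at most 0.0422 RPKM. After Cbx3 siRNA S100a4 (0.62, adjusted p = 0.00822) and Col3a1 (0.50, 0.00814) rose and Col1a2 fell by 0.53 (0.0264). S100a4 passed in all 4 fits without a library, Col3a1 in 2 and Col1a2 in 0, and after Med26 siRNA no fibroblast marker passed. In the ESC libraries, which had MEFs in their growth protocol, fibroblast markers summed to 62.0 and 68.5 RPKM after Cbx3 siRNA and 49.6 and 74.7 RPKM in control. Mesothelium markers, 2 of 4, summed to 3.91 and 3.31 RPKM in NPC Cbx3 siRNA, 3.35 and 3.06 RPKM in NPC Med26 siRNA, and 3.27 and 2.76 RPKM in NPC control, with Upk1b at most 0.0206 RPKM. Msln, of mesothelium, rose after Cbx3 siRNA (0.66, adjusted p = 0.00909, in 2 of the 4 fits without a library) and after Med26 siRNA (0.36, 0.0498, in 0 of 4). ESC markers, 6 of 6 past the filter, summed to 416 and 441 RPKM in NPC Cbx3 siRNA, 507 and 535 RPKM in NPC Med26 siRNA, and 526 and 539 RPKM in NPC control. Pou5f1 made up most of each sum, with 380 and 405 RPKM, 467 and 495 RPKM, and 484 and 497 RPKM in these groups. After Cbx3 siRNA Pou5f1 (-0.32) and Nanog (-0.30) fell, and after Med26 siRNA Esrrb (0.61), Klf4 (0.43) and Tfcp2l1 (0.43) rose and Nanog fell by 0.37. Without any 1 of the 4 libraries compared, 0 ESC markers passed after Cbx3 siRNA and 0 to 1 after Med26 siRNA. After Cbx3 siRNA the neural factors Pax6 (-0.98, adjusted p = 0.00226) and Sox1 (-0.71, adjusted p = 0.00640) fell, and after Med26 siRNA no NPC marker passed.

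The nearest tested genes on each side of the keratins in the genome were checked beside them. The nearest other tested genes in GRCm38.p6 were Atg101 and Eif4b around Krt7, Krt8 and Krt18 on chromosome 15, and Smarce1 and Krt14 around Krt19 on chromosome 11. From Atg101 to Krt7, Krt8 and Krt18 there were 7, 39 and 42 genes between, and to Eif4b 36, 4 and 1. Between Krt19 and Smarce1 there were 67 genes, and between Krt19 and Krt14 there were 2. The genes between were among the 4 keratins or were not tested. Krt14 entered the tested genes only through the NPC Cbx3 siRNA libraries and is given above with no test. Atg101 (0.13, adjusted p = 0.159), Eif4b (-0.25, adjusted p = 0.0556) and Smarce1 (-0.16, adjusted p = 0.166) missed the threshold in NPCs given Cbx3 siRNA, and after Med26 siRNA none of these 3 passed.

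The keratins resembled each other over the 10 libraries, with Pearson correlations of log2(RPKM + 1) from 0.90 for Krt7 with Krt19 to 0.99 for Krt8 with Krt18. Many other genes resembled them as much. Among tested genes Krt8 and Krt18 each ranked 4th in likeness to the other. Krt7 ranked 594th in likeness to Krt19 and 277th to Krt18, and Krt19 ranked 166th in likeness to Krt7. The points share libraries, and the low ESC libraries numbered 1 lie at an end of each relation, so the values over the 6 NPC libraries are given beside them. Krt8 was most like Fam107b (r = 0.996, 0.979 in NPCs), Acsl5 (0.992, 0.972), Iffo1 (0.990, 0.971), Krt18 (0.990, 0.996) and Klf6 (0.989, 0.997). Krt18 was most like Klf6 (0.993, 0.995), Acsl5 (0.992, 0.984), Tes (0.991, 0.857), Krt8 and Zdhhc2 (0.988, 0.945). Klf6 and Acsl5 were among the 5 most alike for both chains of the pair. Genes most like Krt19 included Dsc2 (0.994, 0.949), Cxcl16 (0.993, 0.967), Dsp (0.989, 0.964) and Myh9 (0.988, 0.933), and so the desmosomal cadherin and linker described above. Krt7 was most like Slc20a1 (0.992, 0.997), 3830417A13Rik (0.989, 0.994), Tinagl1 (0.984, 0.970), Mlkl (0.980, 0.971) and Ryk (0.975, 0.915).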

How the data were processed

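RPKM values per RefSeq transcript accession, a column per library, were deposited by the authors as 1 table for the 10 libraries. Per the labels' protocols, total RNA was made into libraries with a kit of the TruSeq RNA type. The submitters' processing notes name TopHat2 2.08 and build mm9. How reads were counted, whether strand was used and what was done with reads that match several places are not stated in the sources used here. Symbols and gene order, but no coordinates, were taken from RefSeq's table for GRCm38.p6 (99.07% of 35860 rows matched), and the row with the highest mean stood for a gene with several rows. Krt19 had a second row of similar values.

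Low values did not fall closely enough on whole reads to recover counts (69.0% to 74.6% within 0.1 reads), so no count test was run, and intervals cover the spread between libraries. Genes reaching 1 RPKM in 2 or more libraries were tested with limma 3.58.1 in R 4.3.3 on log2(RPKM + 1), with an intensity trend, two-sided, with Benjamini-Hochberg adjustment over all tested genes at 0.05. NPC comparisons came from a fit of the 6 NPC libraries (3 residual degrees of freedom), the others from a fit of all 10 (5). Nothing says that the 2 libraries of a group came from separate cultures beyond the word biological, so p-values measure the spread between these libraries alone. The method was tested on simulated data.

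The 4 genes, the lists, the markers and the choice of the NPC fit were made with earlier results of these data known. Of each list, up to 4 genes past the threshold with the largest changes are named, beside all keratins past the filter and the 5 genes most like each keratin; other genes named, such as genome neighbours and genes that kept a call, were chosen after values were seen. Alternatives were another pseudocount (0.1), no filter, scaling by median ratios, summed rows, no trend, a replicate block, other sets of libraries and leaving out each library. Some items that these rules would name are not reported here.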

Additional observations from a re-analysis of the deposited data

How the results depend on the processing

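The 4 keratins after Cbx3 siRNA and after Med26 siRNA, and Krt7, Krt8 and Krt18 between the siRNAs, kept their calls in NPCs with a pseudocount of 0.1, no filter, scaling by median ratios, summed rows, no trend and the replicate block. In the fit of all 10 libraries 0 of the 4 passed after Cbx3 siRNA, after Med26 siRNA or between the siRNAs. That fit's spread includes the ESC replicates, and the fit called 1, 15 and 120 of the 11956 tested genes in these comparisons. The labels do not say that replicate numbers mark shared cultures. The deviations of libraries with the same number correlated at 0.89 between the ESC groups and at 0.42 to 0.46 between NPC groups. With the replicate block 3 keratins passed after Cbx3 siRNA in ESCs (limma, adjusted p = 0.0438 for Krt7, 0.0262 for Krt8 and 0.0419 for Krt18). Between NPC control and ESC control 4 passed with the block. Over the 11956 tested genes the block called 813 after Cbx3 siRNA in ESCs and 6912 between the controls, so such calls were common there. Within the ESC libraries numbered 1 and within those numbered 2, the ratio of Cbx3 siRNA to control RPKM was 1.37 and 2.35 for Krt8, 1.23 and 2.35 for Krt18, 1.53 and 2.00 for Krt7 and 0.802 and 1.72 for Krt19.

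Leaving out each library in turn, these changes took both signs. Krt19 between Cbx3 and Med26 siRNA ran from -0.141 to 0.0641. After Cbx3 siRNA in ESCs Krt7 ran from -0.39 to 1.46, Krt8 from -1.07 to 2.66, Krt18 from -0.88 to 2.38 and Krt19 from -0.88 to 1.37. Krt7 between NPC and ESC control ran from -0.0170 to 1.29. The difference of the Cbx3 siRNA responses, NPC minus ESC, ran from -0.0515 to 1.795 for Krt7, -1.15 to 2.57 for Krt8, -1.18 to 2.081 for Krt18 and -0.26 to 1.99 for Krt19. The cause was not tested.

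Counts over all genes moved too. After Cbx3 siRNA in NPCs 1570 genes passed, 876 with no filter, 3495 with the block, 1 in the fit of all 10 libraries and 391 to 524 without a library. After Med26 siRNA these were 1597, 611, 3705, 15 and 164 to 320, and between the siRNAs 2185, 1325, 4234, 120 and 560 to 976. After Cbx3 siRNA in ESCs 0 passed, 2 with no filter and 813 with the block, and for the difference of responses 0, 4 and 6. Between NPC and ESC control 1918 passed, 6912 with the block, 47 in the fit of the 4 control libraries and 185 to 2372 without a library.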
